A study of Danio rerio with 8 samples.

Results

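Enzymes of mucin-type and proteoglycan sugar chains, and some of N-glycans and glycolipids, were compared between the cornea and the epidermis of adult zebrafish. They were taken by gene symbol: the galnt, gcnt, b3gnt, b3gal, b4gal, st3gal, st6gal, st8sia, fut, mgat, chst, chsy, ndst and ext families, the hs2st, hs3st and hs6st families, the sugar nucleotide genes gmds, gfus and ugdh, and the mucins themselves (muc followed by a digit). The symbols took in 113 of the 14462 genes with a value. No mucin was among them, so every member was an enzyme. The 113 genes were read by 158 probes, of which 80 genes had 1 probe and 33 had several.

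The cornea and epidermis of AB2O2 wild type adults were labelled with opposite dyes and hybridised together on 2-colour oligonucleotide arrays. Each of the 4 biological repeats was hybridised to a pair of arrays that differed in dye orientation, and the 8 arrays lay on 2 slides. Each repeat pooled corneae that were dissected with forceps from many eye globes, and the epidermis came with scales scraped from the skin, so cells of the scales and traces of neighbouring tissue can be in either sample. The paper describes the cornea as epithelium, stroma and endothelium, whereas the dermis of the skin was compared separately in the study. The tissues compared here thus differ in the layers they hold. Values are log2 ratios of cornea over epidermis, so that a value above 0 is higher in cornea and a value of 1 is a 2-fold difference. The files do not state the direction, which was taken from the tissue order of the sample titles and from genes the study called corneal. The 2 arrays of a repeat were averaged first, n is 4, and errors are SDs between repeats. A gene was called when its adjusted p from limma, over all genes, was under 0.05. In whole tissues, fewer cells of a type and less RNA per cell cannot be told apart, and a ratio gives no level in either tissue. Gene names hold only if the probe arrangement described under the processing is right.

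Sugar chains are built in the Golgi by transferases that each add 1 kind of sugar from an activated donor such as GDP-fucose, CMP-sialic acid or UDP-GalNAc. Mucin-type chains start with GalNAc on serine or threonine, are branched and extended, and are capped with sialic acid or fucose; on the eye and on fish skin they form the hydrated surface coat. Proteoglycans carry chondroitin, dermatan or heparan sulfate on a common linker, or keratan sulfate, the chain that the corneal stroma is known for. Roles given below are those of the mammalian enzymes of the same name.

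A few of the enzymes differed strongly between the tissues, and most were not called. Of the 113 members, 36 were called (31.9%), against 36.7% of all genes. Higher in cornea were 22 members (19.5%, against 22.9% of all genes) and lower were 14 (12.4%, against 13.8%). Beyond 2-fold, 9 were higher (7.96%, against 10.3%) and 6 lower (5.31%, against 4.87%). The median of the members was 0.02 and that of all genes 0.03, so these shares were near the background of the arrays. The 9 were galnt7, gmds, st6galnac2, b4galnt3a, ext1c, hs3st1l2, chst11, b3galt2 and hs6st2, and the 6 were b4galnt1a, b3gnt7l, gcnt4a, chsy1, fut9b.6 and mgat1a. All 15 had the same sign on all 8 arrays and were called whichever repeat was left out. However, 6 of the higher and all 6 lower genes were read by 1 probe each. For those genes the agreement is between arrays of the same probe, not between probes. For the counts by role and list below, the shares of all genes (22.9% higher and 13.8% lower) are the background.

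**Figure D1:**
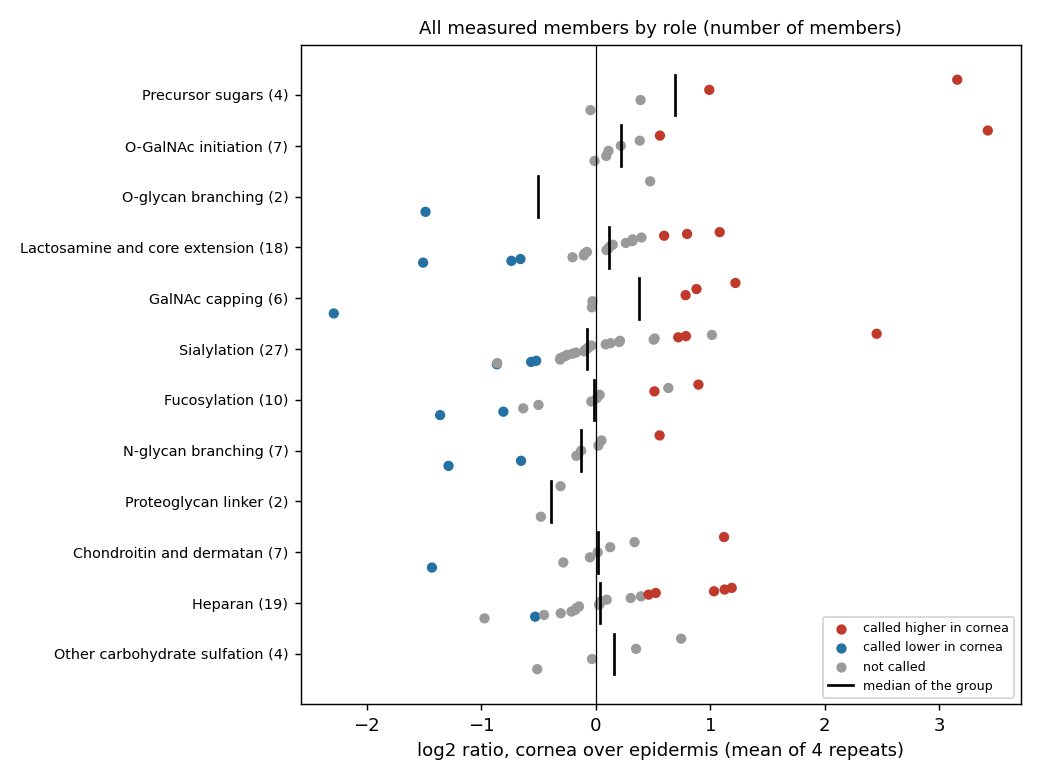
Log2 ratio of cornea over epidermis (mean of 4 repeats, x axis) of each of the 113 members, a point each, by role (y axis, number of members in brackets), with the median of each role as a line. Over all roles the median is 0.02, while galnt7 at 3.42, gmds at 3.16 and st6galnac2 at 2.45 lie far to the right and b4galnt1a at −2.29 far to the left.

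Markers of cell types that the samples could hold also differed. All 5 measured markers of cornea and eye ectoderm were higher in cornea (median 3.34), as were 6 of 8 keratinocyte genes (2 lower), 6 of 9 skeletal muscle genes and 3 of 4 pigment cell genes, with 0 lower in the last pair of lists. Since the direction of the ratios was taken in part from such corneal genes, the direction of the eye markers is no independent check. Of 3 measured mucous cell markers, agr2 (−3.12 ± 0.61) and foxa3 (−2.38 ± 0.39) were lower in cornea, and spdef was −0.85 ± 1.36 and not called. Of 11 markers of scale osteoblasts and osteoclasts, 4 were lower, all of them beyond 2-fold, and 1 was higher. Single genes of this list ran from −5.35 to 2.69, while its median in each repeat ran from −0.51 to −0.06. Of 3 retina genes gnat2 was higher (2.69 ± 0.27), 2 of 6 lens genes were lower, and 1 of 4 erythroid genes was lower. The study also counted gnat2 and the keratinocyte genes epcam and scel among its cornea genes, chosen in part on these samples. Their direction is therefore no independent evidence either. These lists moved with the same comparison as the enzymes, and their part in the values below was not tested.

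The group with the highest median was the supply of precursor sugars (median 0.69), in which 2 of 4 genes were higher and 0 lower. gmds, the GDP-mannose 4,6-dehydratase that commits GDP-mannose to GDP-fucose, gave 2.67, 3.43, 3.39 and 3.14 in repeats 1 to 4. The 4 repeats lay close together and far above 0. The mean was 3.16 ± 0.35, an 8.92-fold difference (limma, adjusted p = 8.8e-05), which ranked 62 of 14462 genes from the top. The next enzyme of the route, GDP-L-fucose synthase, was read as a pair of genes. gfus.2 gave 0.43, 1.08, 1.24 and 1.22 (mean 0.99 ± 0.38, adjusted p = 0.0053), and gfus.1 gave 0.41, 0.15, −0.39 and −0.35 (mean −0.05 ± 0.39, adjusted p = 0.862). The lowest repeat of gfus.2 was just above the highest of gfus.1, and RefSeq places the pair side by side on chromosome 20. The study placed gmds and galnt7 among its cornea genes from these same samples and a separate comparison with dermis. Their direction here is therefore no independent evidence. For gmds the study also reported RT-qPCR higher in cornea than in dermis, and in situ signal mainly in the corneal epithelium. It reported retinal signal as well for every cornea gene it examined in adult eyes, gmds among them. In early larvae it saw no gmds signal in the cornea. galnt7 was among the cornea genes it probed in situ in larvae.

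ugdh, the dehydrogenase that makes UDP-glucuronic acid for glycosaminoglycan chains, gave 0.56, −0.36, 0.54 and 0.82. Repeat 2 was the only repeat below 0, and the mean of 0.39 ± 0.52 was not called (adjusted p = 0.199). Without repeat 2 the mean was 0.64 and called (adjusted p = 0.0267). Over all alternatives, adjusted p from limma ran from 3.5e-04 to 1.00. The lowest came from keeping only probes of 1 sign, the highest from a test against a log2 ratio of 0.5. The 2 probes of ugdh differed, with 0.82 for the one, which was called (adjusted p = 0.0082), and −0.04 for the other.

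Around gmds, the genes that feed and use GDP-fucose did not all move together. Among 29 measured genes for nucleotide sugars and their Golgi transporters, 8 were higher in cornea and 5 lower (median 0.18). That was 44.8% called, against 36.7% of all genes. The largest difference was that of gmppb, which makes GDP-mannose, at 1.57, 2.15, 1.67 and 2.31 (mean 1.93 ± 0.36, adjusted p = 3.8e-04). All 4 repeats were well above 0. The remaining steps of the route were set beside it after their values had been seen. mpi, the mannose phosphate isomerase, was higher at 0.59 ± 0.14, and slc35c1, the GDP-fucose transporter of the Golgi, at 0.71 ± 0.22. pmm2 (−0.02 ± 0.42), gmppaa (−0.37 ± 0.13) and gmppab (−0.43 ± 0.53) were not called. Thus 5 of the 9 genes from mannose phosphate to the Golgi membrane were called higher, against 22.9% of all genes. None was called lower, against 13.8% of all genes, although gmppaa and gmppab were below 0 on all 8 arrays. Because the 9 genes were put together after their values were seen, the count was not tested and is no result about the route.

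Downstream, the fringe gene lfng, which extends O-linked fucose on Notch receptors with GlcNAc, gave 1.39, 1.09, 1.55 and 1.22 (mean 1.31 ± 0.20, adjusted p = 6.3e-04). Its relative mfng was lower at −0.52 ± 0.24 (adjusted p = 0.0283), with probes between −0.63 and −0.27, and rfng was not called (−0.22 ± 0.35). The O-fucosyltransferases pofut1 (−0.20 ± 0.30) and pofut2 (0.45 ± 0.35) were not called. The value of pofut1 was the mean of 2 probes of opposite sign, at −1.74 and 1.34. Of 8 core 1 and O-fucose genes, lfng was the 1 higher and 2 were lower (37.5% called, against 36.7% of all genes). The other lower gene was c1galt1c1, the chaperone of the core 1 galactosyltransferase, at −0.73 ± 0.18 (adjusted p = 0.0054). c1galt1a, the transferase itself, was 0.35 ± 0.79 and not called.

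**Figure D2:**
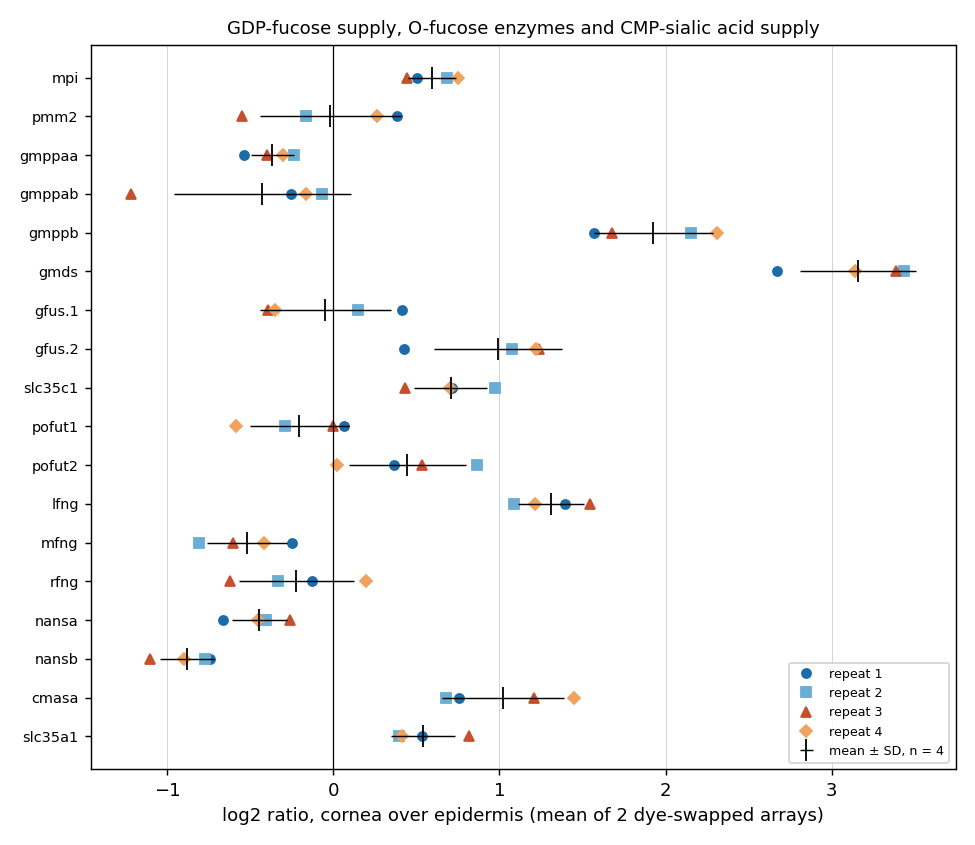
Log2 ratio of cornea over epidermis (x axis) in each repeat (symbols) with mean ± SD (n = 4) for the genes of GDP-fucose supply, the O-fucose enzymes and CMP-sialic acid supply (y axis). gmds, gmppb and lfng lie above 1 in all 4 repeats, while nansa and nansb lie below 0 in all 4.

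The 4 genes read for the sialic acid route went in both directions. nansa (−0.44 ± 0.17, adjusted p = 0.0341) and nansb (−0.88 ± 0.16, adjusted p = 0.0024), which make sialic acid, were lower in cornea. cmasa, which activates it to CMP-sialic acid, was higher at 0.75, 0.68, 1.21 and 1.45 (mean 1.02 ± 0.37, adjusted p = 0.0043), and so was the Golgi transporter slc35a1 at 0.54 ± 0.19 (adjusted p = 0.019). These 4 genes too were put side by side after their values were known. Their separation was therefore not tested and is no result about the route. Elsewhere in the list, ugp2b, which makes UDP-glucose, was higher at 1.09 ± 0.27, although its 3 probes ran from −0.00 to 1.97. slc35b1, a nucleotide transporter of the endoplasmic reticulum, was lower at −1.22 ± 0.28. papss2a, which makes the sulfate donor PAPS, was lower at −1.36 ± 0.02, the mean of probes at −3.09 and 0.37.

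The enzymes that put the first GalNAc on mucin-type chains included the member with the highest ratio. galnt7, a transferase that in mammals prefers peptides already carrying GalNAc, gave 3.33, 3.20, 3.45 and 3.72. The mean was 3.42 ± 0.22, a 10.7-fold difference (adjusted p = 4.1e-05), 43 of 14462 genes from the top. No other galnt gene came near it. galnt2 was called at 0.56 ± 0.24 (adjusted p = 0.021), but 1 of its 3 probes gave 1.65 and the others 0.01 and 0.02, and it was no longer called after repeat 3 (adjusted p = 0.0932) or repeat 4 (0.082) was left out. The remaining 5 lay between galntl6 at −0.01 and galnt6 at 0.38 and were not called. The 7 genes had a median of 0.22, with 2 higher and 0 lower.

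Of the 2 measured branching enzymes, gcnt4a, a core 2 GlcNAc transferase, was lower in cornea in every repeat, at −1.52, −1.32, −1.58 and −1.53. Its mean of −1.49 ± 0.11 (adjusted p = 2.8e-04) had one of the smallest spreads among the called members. gcnt4b.2 gave 0.10, 0.19, 0.80 and 0.80 and was not called (0.47 ± 0.38, adjusted p = 0.0753). The repeats of the pair did not overlap. The mucous cell markers agr2 and foxa3 lay below 0 on the same arrays, and their part in the value of gcnt4a was not tested.

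Among the 18 genes that extend chains with galactose and GlcNAc, 3 were higher and 3 lower (median 0.12). b3galt2, which adds galactose to GlcNAc, was highest at 0.81, 1.01, 1.12 and 1.39 (mean 1.08 ± 0.24, adjusted p = 0.0016). b3gnt7l was lowest at −1.69, −1.31, −1.24 and −1.79 (mean −1.51 ± 0.27, adjusted p = 5.7e-04). Its symbol marks it as like b3gnt7, which extends keratan sulfate chains in mammals, and b3gnt7 itself was −0.08 ± 0.42 and not called. b3gnt2l was higher at 0.80 ± 0.33 on 1 of its 2 probes (1.60 and −0.01). b4galt1, the common β4-galactosyltransferase, was called lower at −0.74 ± 0.57 (adjusted p = 0.0438), but its 4 probes gave −2.10, −1.64, 0.31 and 0.49. The call of b4galt1 was lost whichever repeat was left out (adjusted p from 0.0554 to 0.0965).

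The GalNAc transferases that cap chains held the lowest member. b4galnt1a, the synthase of the simplest gangliosides with GalNAc, gave −2.49, −2.56, −2.70 and −1.40. Repeat 4 stood apart, but all 8 arrays were below 0, and the mean was −2.29 ± 0.60 (adjusted p = 6.7e-04), that is 4.89-fold lower in cornea. Its paralog b4galnt1b was −0.03 ± 0.37. In the same group b4galnt3a, which makes the GalNAc-GlcNAc (LacdiNAc) end group, was higher at 0.93, 1.55, 1.03 and 1.37 (mean 1.22 ± 0.29, adjusted p = 0.0013), and its paralog b4galnt3b was higher at 0.78 ± 0.56. Leaving out repeat 1, 3 or 4 ended the latter call (adjusted p = 0.0693, 0.102 and 0.114). b3galnt2, known for the sugar chain of dystroglycan, was higher at 0.88 ± 0.18 (adjusted p = 0.0025). Over the 6 genes 3 were higher and 1 lower, with a median of 0.38.

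Sialyltransferases formed the largest group, with 27 genes, of which 3 were higher and 3 lower (median −0.08). st6galnac2, which adds sialic acid to the GalNAc of O-linked chains, gave 2.12, 2.53, 2.80 and 2.36. These repeats lay closely together, and the mean of 2.45 ± 0.29 (adjusted p = 1.3e-04) was a 5.48-fold difference. The other st6galnac genes lay between −0.31 and 0.51 and none was called. st3gal5, which makes the ganglioside GM3, was higher at 0.79 ± 0.30 (adjusted p = 0.0083). st3gal3a was higher at 0.72 ± 0.42, and its call was lost without repeat 2, 3 or 4 (adjusted p = 0.064, 0.0785 and 0.0737). At the other end st8sia7.2, of the family that joins sialic acids to each other, was lower at −0.67, −1.08, −0.44 and −1.27 (mean −0.86 ± 0.38, adjusted p = 0.009). The adjacent gene st8sia7.1 was −0.27 ± 0.61 and overlapped it. The calls of the remaining lower genes, st6gal1 (−0.52 ± 0.21) and st3gal1l2 (−0.56 ± 0.23), were lost without repeat 4 (adjusted p = 0.099 and 0.0809), and that of st6gal1 also without repeat 3 (0.0777).

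The fucosyltransferases draw on GDP-fucose. Of 10 genes 2 were higher and 2 lower (median −0.01, against 0.03 over all genes). That was 40% called, against 36.7% of all genes, and near that background. Their relation to gmds was not tested. fut8a, which fucosylates the core of N-glycans, gave 0.67, 1.15, 0.42 and 1.34 (mean 0.90 ± 0.42, adjusted p = 0.0101). The remaining calls fell in the fut9 family, makers of the Lewis x end group. fut9b.6 gave −1.56, −1.01, −1.61 and −1.25 (mean −1.36 ± 0.28, adjusted p = 8.4e-04), and fut9b.3 was lower at −0.81 ± 0.39. fut9b.1 was higher at 0.51 ± 0.30, with probes at 1.19 and −0.17. Between them, fut9b.4 was 0.01 ± 0.02 and fut9b.5 was 0.63 ± 0.52, neither of them called. RefSeq lists these 5 fut9b genes close together on chromosome 8. Copies of a gene can share probe sequence, which was not examined here. The call of fut9b.1 was lost without repeat 1, 2 or 3 (adjusted p = 0.104, 0.126 and 0.128) and that of fut9b.3 without repeat 4 (0.0578). fut9b.3 also differed by dye, with a mean of −0.17 with cornea in Cy5 and −1.44 with cornea in Cy3.

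Among the 7 enzymes of N-glycan branching 1 was higher and 2 lower (median −0.13). mgat1a, the GlcNAc transferase that opens the way to complex N-glycans, gave −1.02, −1.15, −1.70 and −1.28 (mean −1.29 ± 0.30, adjusted p = 0.0011). Its paralog mgat1b, read by 4 probes, was −0.13 ± 0.20 and overlapped it in no repeat. mgat4a was lower at −0.65 ± 0.21, of which −0.25 with cornea in Cy5 and −1.06 in Cy3. mgat3a, which adds the bisecting GlcNAc, gave 0.49, 0.64, 0.08 and 1.02 and just passed the threshold (mean 0.56 ± 0.39, adjusted p = 0.0477). Without repeats 1, 2 and 4 in turn it did not pass (means 0.58, 0.53 and 0.40, adjusted p = 0.0989, 0.124 and 0.162). Over all alternatives, its adjusted p ran from 0.0146 to 1.00. The lowest came from keeping only probes of 1 sign, the highest from a test against a log2 ratio of 0.5.

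**Figure D3:**
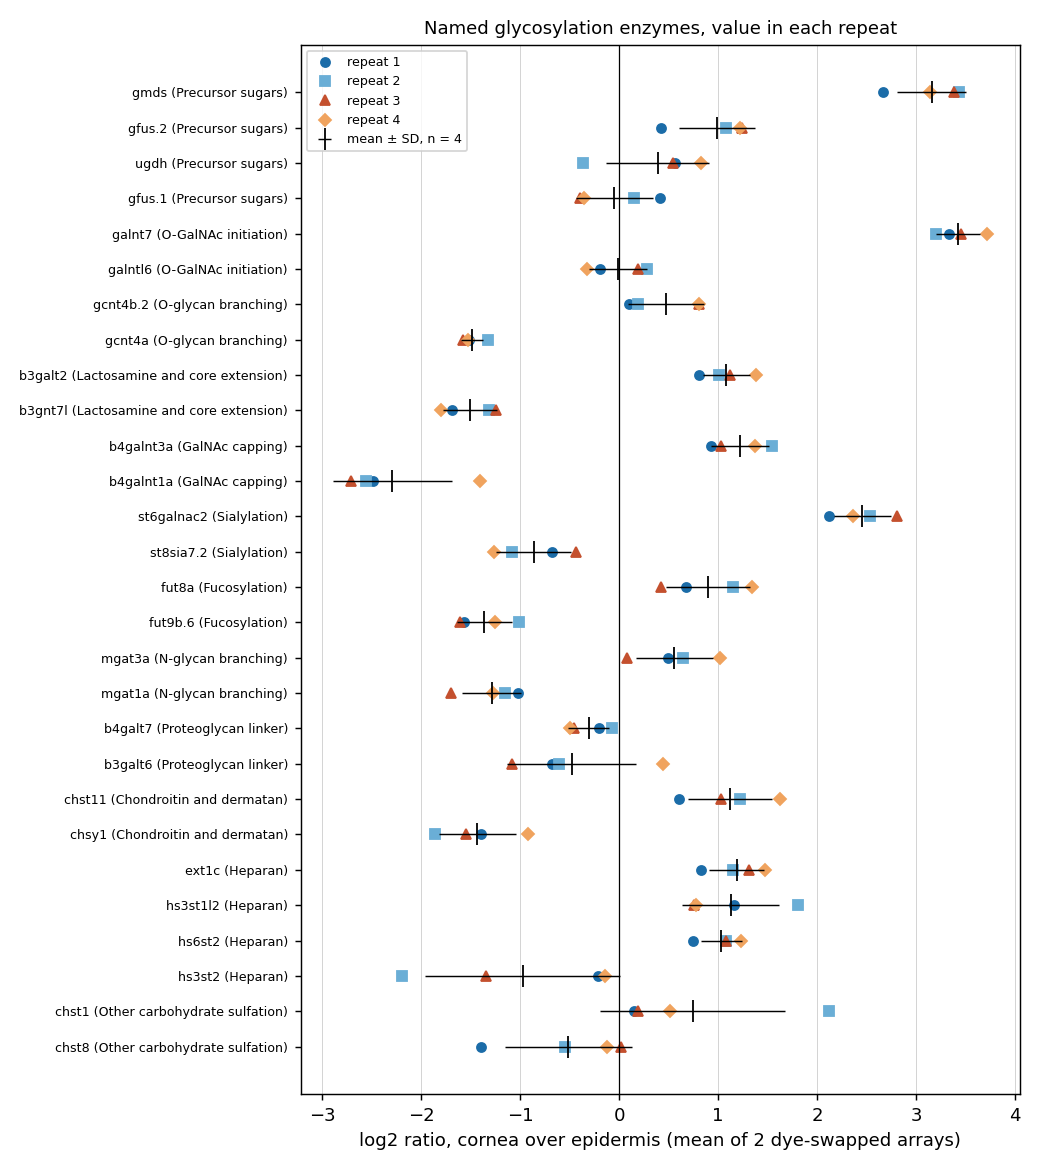
Log2 ratio of cornea over epidermis (x axis) of 28 members in each of the 4 repeats (symbols) with mean ± SD, with the role in brackets (y axis). The members are those beyond 2-fold with 1 sign on all arrays, the highest and lowest of each role, and the precursor and linker genes. The repeats of gcnt4a, galnt7 and b3gnt7l lie close together, while those of hs3st2, chst1 and b3galt6 are spread widely.

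Both galactosyltransferases of the linker by which chondroitin and heparan chains hang on the core protein were below 0 and not called. b4galt7 gave −0.21, −0.07, −0.46 and −0.50 (mean −0.31 ± 0.21, adjusted p = 0.121), and b3galt6 gave −0.67, −0.61, −1.09 and 0.44 (mean −0.48 ± 0.65, adjusted p = 0.186). Only repeat 4 of b3galt6 was above 0. Without it b3galt6 was −0.79 and called (adjusted p = 0.0262), the lowest adjusted p of its alternatives. The highest, 1.00, came from a test against a log2 ratio of 0.5. Among 12 further genes of the linker and of both chains, 2 were higher and 1 lower (median 0.10). That was 25% called, against 36.7% of all genes. fam20b, the kinase that phosphorylates the linker xylose, was higher at 0.95, 2.62, 1.20 and 1.47 (mean 1.56 ± 0.74, adjusted p = 0.0058), and sulf2b, a sulfatase that trims heparan sulfate, was higher at 0.81 ± 0.57. xylt1, which adds the first xylose, was lower at −0.58 ± 0.19 (adjusted p = 0.015).

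Chondroitin and dermatan enzymes held 1 call in each direction among 7 genes (median 0.02). chst11, which sulfates the GalNAc of chondroitin, gave 0.61, 1.22, 1.03 and 1.62 (mean 1.12 ± 0.42, adjusted p = 0.0041), with probes at 1.65 and 0.59, of which the first was called. chsy1, a polymerase of the chondroitin backbone, gave −1.40, −1.86, −1.54 and −0.92 (mean −1.43 ± 0.39, adjusted p = 0.0013), that is 2.70-fold lower in cornea. The related polymerase chsy3 gave 0.14, 0.58, 0.44 and 0.20 (mean 0.34 ± 0.20, adjusted p = 0.0927), above chsy1 in every repeat.

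Of the 19 heparan enzymes 5 were higher and 1 lower, with a median of 0.04, against 22.9% of all genes higher and 13.8% lower. ext1c, a copolymerase of the heparan backbone, gave 0.82, 1.15, 1.31 and 1.47 (mean 1.19 ± 0.28, adjusted p = 0.0013), with both probes called (1.26 and 1.12). Its paralogs ext1a (0.31 ± 0.34) and ext1b (−0.18 ± 0.36) were not called, nor was the partner ext2 (−0.15 ± 0.16). Of the sulfotransferases, hs3st1l2 gave 1.16, 1.81, 0.75 and 0.78 (mean 1.13 ± 0.49, adjusted p = 0.0062). hs6st2 gave 0.75, 1.08, 1.08 and 1.23 (mean 1.03 ± 0.20, adjusted p = 0.0016), with probes at 1.75 and 0.32, of which the first was called. With only its probe of smallest variance, hs6st2 was not called (limma, adjusted p = 0.165). hs3st1l2 and hs6st2 were thus above 0 in all 4 repeats, by at least 0.75. hs3st2, the lowest of the group, gave −0.21, −2.19, −1.34 and −0.14 and was not called (−0.97 ± 0.98, adjusted p = 0.0773).

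The smaller calls among heparan enzymes were hs6st1a (0.52 ± 0.29), hs2st1a (0.46 ± 0.17) and hs3st3l (−0.53 ± 0.10). Each was lost without repeat 3 (adjusted p = 0.0875, 0.13 and 0.0555) and without repeat 4 (0.0947, 0.113 and 0.0634). hs6st1a was lost also without repeat 1 (0.0745), and hs2st1a and hs3st3l also without repeat 2 (0.0775 and 0.0513). By dye, hs6st1a was −0.16 with cornea in Cy5 and 1.21 with cornea in Cy3, and hs2st1a was 0.08 and 0.84. Of the 36 called members 35 had the same sign in both orientations, and hs6st1a was the exception.

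The 4 remaining sulfotransferases, among them the keratan sulfate enzyme chst1, gave no call (median 0.16). chst1 gave 0.15, 2.12, 0.19 and 0.52 (mean 0.75 ± 0.93, adjusted p = 0.138). Repeat 2 carried most of this, and the mean without it was 0.29. chst8, which sulfates GalNAc, was lowest at −1.39, −0.55, 0.02 and −0.12 (mean −0.51 ± 0.64, adjusted p = 0.156). The interval of the difference (95%) was −0.07 to 1.56 for chst1 and −1.10 to 0.08 for chst8, so neither a difference beyond 2-fold nor none was shown for either gene.

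The core proteins that carry these chains were called in both directions, with 7 higher and 5 lower of 22 (median −0.04). That was 54.5% called, against 36.7% of all genes, and the share was not tested. The part of the corneal stroma in these values was not tested either. The largest differences were those of bgna (−4.75 ± 0.44), dcn (2.84 ± 0.19), gpc1b (2.44 ± 0.27) and gpc6a (2.21 ± 0.34). dcn and gpc1b are among the study's cornea genes, chosen in part on these samples, so their direction is no independent evidence. bgna and dcn are small leucine-rich proteoglycans with chondroitin or dermatan sulfate, and gpc1b and gpc6a are glypicans, which carry heparan sulfate at the cell surface. Of the 3 hyaluronan synthases, which need no core protein, has1 (−0.43 ± 0.21, adjusted p = 0.0441) and has2 (−0.67 ± 0.43, adjusted p = 0.0312) were lower and has3 was −0.38 ± 0.27 and not called.

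Grouped by symbol, 36 members fell into 15 sets of paralogs. A called member occurred in 12 sets. With 36.7% of all genes called, a set of several genes will often hold a call, so this count is no result about paralogs. Called members of opposite direction occurred in 2 sets, fut9 and b3gnt5. b3gnt5a, which like b3gnt5b starts the lacto-series glycolipids, was 0.60 ± 0.28 (adjusted p = 0.0207), and b3gnt5b gave −0.73, −0.60, −0.76 and −0.54 (mean −0.66 ± 0.10, adjusted p = 0.006). The first rested on 1 of 3 probes (2.47, −0.14 and −0.54) and was not called once repeat 2 (adjusted p = 0.053) or repeat 4 (0.0542) was left out. The differences between paralogs were not tested as such, and the pairs described were picked after their values were seen.

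**Figure D4:**
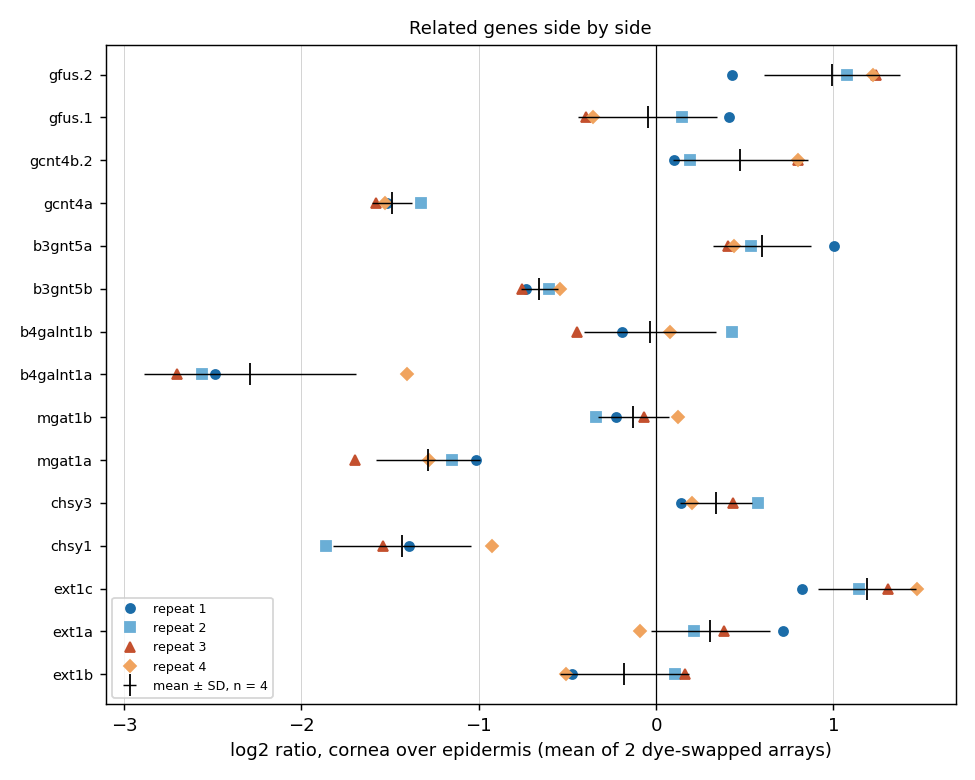
Log2 ratio of cornea over epidermis (x axis) of related genes (y axis) in each repeat (symbols) with mean ± SD (n = 4). In each set the values of gcnt4a, b4galnt1a, mgat1a and chsy1 lie at −0.92 or lower in all repeats, and those of gcnt4b.2, b4galnt1b, mgat1b and chsy3 lie around or above 0.

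The probes of a gene did not always give 1 answer. Of the 33 members with several probes, 15 had probes on both sides of 0, but no member had probes called in both directions. Of all probes on the arrays 24.4% were called, 14.0% higher and 10.4% lower. Of the 158 member probes, 22 were called higher and 15 lower. For 4 members a probe was called and the gene was not: ugdh, st8sia1, galnt14 and galnt6. In reverse, b4galnt3b, hs6st1a, hs2st1a, mgat3a and st6gal1 were called as genes although none of their probes was. Adjusted p was taken over 45220 features for probes and over 14462 genes for genes. Among named members beyond 2-fold with several probes, ext1c was the one whose probes were all called. Whether transcript variants, annotation or probe quality lie behind the differences was not tested.

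**Figure D5:**
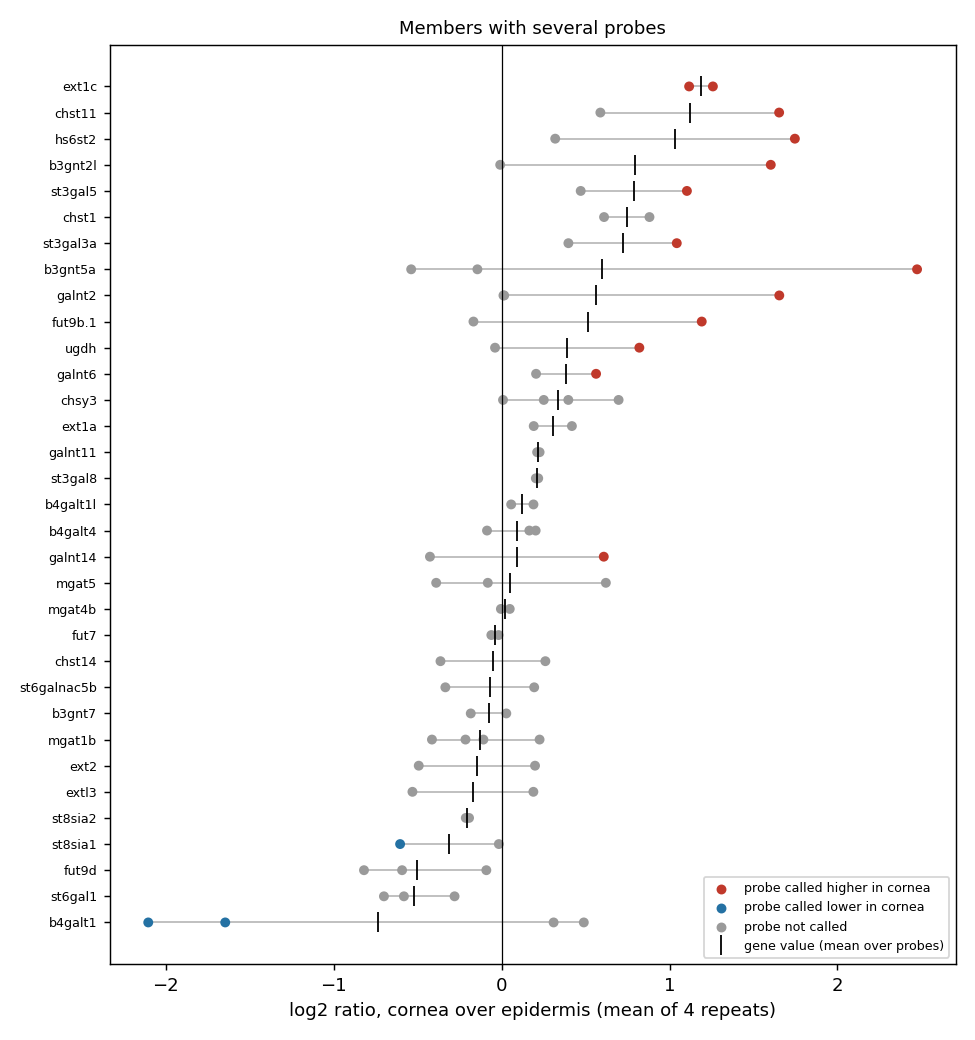
Log2 ratio of cornea over epidermis (x axis) of each probe (points) and the gene value (bar, mean over probes) for members with several probes (y axis). The 2 probes of ext1c lie together at 1.12 and 1.26, while those of b4galt1 run from −2.10 to 0.49 and those of b3gnt5a from −0.54 to 2.47.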

How the data were processed

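RNA of cornea and epidermis from 4 repeats was compared on 8 2-colour arrays. The deposited values are log2 ratios, which the authors made from GenePix scans with limma (background correction by the minimum method, normalisation within arrays, and between arrays by quantiles of the average intensity) (limma version: not given in the sources used here), and base 2 is limma's convention. Spot intensities were not used here, so background and saturation are unknown, and the number of arrays limits the precision. Array medians ran from −0.0195 to 0.0092.

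Feature numbers matched to the probe annotation as given left probes of a gene unlike each other (r = 0.0191 over 5098 genes). In a grid of 532 by 85 places, turned and staggered by 2, found from these data, r was 0.361, and this arrangement was used. It gave 21061 probes 1 symbol, 24159 features none, and 14462 genes. Of the members 112 had a RefSeq gene ID, and 0 symbols changed; the RefSeq assembly may differ from that of the probe design, and only names and neighbours were taken from it.

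The 2 arrays of a repeat correlated above 0 (r from 0.390 to 0.515), so the values already ran in 1 order and no sign was turned. That arrays hold the same 2 extracts within a repeat was taken from the sample titles. Deviations from the orientation mean correlated from 0.0213 to 0.0899 within repeats and from −0.0924 to 0.0370 across. These ranges overlap near 0 and cannot show shared extracts. The 2 arrays of a repeat were averaged, and probes were averaged per gene. The mean was tested against 0, two-sided, with limma 3.58.1 (lmFit, eBayes, Benjamini-Hochberg over all genes) in R 4.3.3. Scripts were tested on simulated data. Python 3.11.15, numpy 2.4.6, pandas 2.3.3 and matplotlib 3.10.9 were used.

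Described in full were members called with 1 sign on 8 arrays and a log2 ratio of at least 1 in size, the highest and lowest of each role, the precursor and linker genes, and at most 4 called genes of each related list. Other genes named were chosen after their values were seen. Members and lists were chosen with earlier results of these data known. Alternatives were each repeat left out, a replicate block with a dye term, each dye orientation, slide as a term and each slide, other probe summaries, centring, another prior, and the stricter tests of the closing section. Protein and promoter sequences were not used here.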

Additional observations from a re-analysis of the deposited data

Results flagged for a closer look

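In each of 126 sets of 4 repeats, the repeat at either end was set against the others. In 9 sets it lay farther off than Dixon's limit for 4 values allows; chance gives about 1 in 20 sets. Of called members, b4galnt1a was less low in repeat 4 (−1.40) and mgat4a was lower in repeat 3 (−0.96) than in the other repeats. Among members that were not called, st3gal4 gave −4.02 in repeat 2, with a single array at −7.60, while its other repeats lay between 0.12 and 0.24. st8sia4 gave 2.63 in repeat 1, while its other repeats lay between 0.44 and 0.54. Repeat 1 stood apart also for fut9b.5 (−0.14) and b3gnt2a (−0.70), where the other repeats were above 0. Repeat 3 stood apart for b4galt5 (1.45) and chst2a (−0.40), and repeat 4 for st6gal2b (0.31). Each of the last 5 genes had the opposite sign in its remaining repeats.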

How the results depend on the processing

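With the replicate number as a block and a dye term, 36 members were called (23 higher and 13 lower), 33 of them called before, and 5608 of all genes; in this pairing of arrays of the same extracts mgat3a alone among the 28 named members lost its call (adjusted p = 0.175). With 1 repeat left out, 26 to 35 members were called (15 to 22 higher, 11 to 13 lower), and 3818 to 4854 of all genes (2466 to 2975 higher, 1329 to 1879 lower, fewest lower without repeat 3). Of the 36 called members 23 kept their call whichever repeat was left out. Of the 28 named members, galntl6 and gfus.1, whose values lay near 0 and were not called, crossed 0 under some alternatives (to at most 0.09 and 0.28), and the other 26 kept their sign under all those run.

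Counts fell with fewer samples or stricter tests. On slide 1 alone, 11 members (5 higher, 6 lower) and 2039 of all genes (1400 and 639) were called, and on slide 2 alone, 26 members (19 higher, 7 lower) and 3414 of all genes (2190 and 1224). A test against a log2 ratio of 0.5 (treat) called 14 members (8 and 6) and 2125 genes (1486 and 639). The study's thresholds, adjusted p under 0.001 together with over 2-fold, called 7 members (3 and 4) and 1275 genes (960 and 315). With cornea in Cy5 alone, 28 members were called (19 higher, 9 lower), and 4153 of all genes (2605 and 1548). With cornea in Cy3 alone, 30 members were called (19 higher, 11 lower), and 4468 of all genes (2817 and 1651). Keeping only probes of 1 sign, which selects by the outcome, called 2998 genes lower. Members without such a probe dropped out, so the group medians covered fewer genes. They were −0.34 (fucosylation), 0.83 (GalNAc capping), 0.46 (heparan), −0.20 (lactosamine), 1.11 (O-GalNAc initiation) and 0.99 (precursor sugars). Other sulfation was left with chst1 alone, at 0.88. Other medians that moved were those of fucosylation with a repeat left out (−0.0944 to 0.0213), heparan with cornea in Cy5 (−0.12), O-GalNAc initiation with cornea in Cy3 (0.34) and precursor sugars on slide 2 (0.96). Apart from the smaller samples, the stricter thresholds and the probes left out, the cause was not tested.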
